A study of Mus musculus with 54 samples.

Results

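The 36 genes described here encode the machinery that carries fatty acids into mitochondria and breaks them down. They were chosen by name, as the rows of the deposited gene table whose symbol belongs to the carnitine shuttle, long-chain acyl-CoA activation, beta-oxidation and its auxiliary steps, or the electron transfer flavoprotein system. The list was drawn up with earlier results of these data known. All 36 names matched a row of the 55487 rows in the table, and all 36 are among the 12742 rows that entered the tests because they reached at least 1 TPM in at least 5 libraries. TPM is a library's share of reads for a gene, corrected for transcript length, so levels of different genes can be set side by side. By role, 6 genes belong to the carnitine shuttle, 4 to acyl-CoA activation, 9 to the acyl-CoA dehydrogenases, 7 to the hydratase, dehydrogenase and thiolase steps, 4 to the auxiliary steps for unsaturated and odd-chain acids, 3 to the electron transfer flavoprotein system and 3 to thioesterases and malonyl-CoA breakdown.

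RNA came from SGLT2-positive early proximal tubules cut from mouse kidney by laser, with 70 to 80 tubules pooled per sample. The animals were male DBA mice aged 14 weeks, and every animal received its diet or injections for 2 weeks. Diabetic mice carried the Ins2 Akita/+ allele, which misfolds insulin and causes insulin-deficient diabetes, and their littermates were Ins2+/+. Sglt1 knockout (KO, Sglt1-/-) mice lack the glucose transporter that acts downstream of SGLT2 along the tubule, and wild-type (WT) mice are Sglt1+/+. The 9 groups were Akita KO with dapagliflozin at 10 mg/kg diet (6 libraries), Akita KO with vehicle (6), Akita WT with dapagliflozin (5), Akita WT with semaglutide at 3 nmol/kg per day under the skin (5), Akita WT with vehicle (6), non-diabetic KO with dapagliflozin (6), non-diabetic KO with vehicle (5), non-diabetic WT with dapagliflozin (4) and non-diabetic WT with vehicle (5). Dapagliflozin inhibits SGLT2, and semaglutide activates the GLP-1 receptor.

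Fatty acids become usable for oxidation once long-chain acyl-CoA synthetases join them to coenzyme A, and the carnitine shuttle then moves the acyl groups across the mitochondrial membranes. Acyl-CoA dehydrogenases take the first step of each round of beta-oxidation and hand their electrons to the electron transfer flavoprotein, from which ETF dehydrogenase passes them to ubiquinone in the respiratory chain. The proximal tubule relies heavily on this route for energy, and many genes of the pathway are known targets of the nuclear receptor PPAR-alpha and its coactivator PGC-1alpha.

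The deposited libraries were first set against their labels. Slc5a1, the gene deleted in KO mice, had 0.0252 ± 0.0371 TPM in the 23 KO libraries (0 to 0.123 TPM) and 2.04 ± 0.941 TPM in the 25 WT libraries (0.814 to 4.29 TPM), without overlap. Early proximal tubule markers were abundant throughout, with the SGLT2 gene Slc5a2 at 82.5 to 275 TPM. Libraries held 8465 to 11419 genes at 1 TPM or more, and nuclear protein-coding genes took 5.98% to 14.1% of all TPM. Of all TPM, 1 ribosomal RNA transcript alone took 36.8% to 64.4% and mitochondrial ribosomal RNA took 14.2% to 31.7%. The 4 libraries with the fewest genes were all Akita vehicle libraries, namely KO replicates 5 and 6 and WT replicates 2 and 5, with 8465 to 8869 genes. In these 4 libraries the median member stood at rank 2 to rank 9 from the lowest of 48, so the main counts over the pathway in Akita mice are also given without them. In such tissue pools, fewer cells of a type and less RNA per cell cannot be told apart.

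Promoter sequence of RefSeq (build GRCm38.p6), from 250 bases before to 50 bases after the start of transcription, was held for 30 of the 36 genes. These stretches are printed because they belong to the genes on which the results turn: Etfdh, the member with the smallest p-value under dapagliflozin, Cpt1a at the mouth of the carnitine shuttle, Acadm among the most abundant members, and the stretch that the divergent genes Hadha and Hadhb share.
Etfdh, chr3:79628718-79629017, minus strand: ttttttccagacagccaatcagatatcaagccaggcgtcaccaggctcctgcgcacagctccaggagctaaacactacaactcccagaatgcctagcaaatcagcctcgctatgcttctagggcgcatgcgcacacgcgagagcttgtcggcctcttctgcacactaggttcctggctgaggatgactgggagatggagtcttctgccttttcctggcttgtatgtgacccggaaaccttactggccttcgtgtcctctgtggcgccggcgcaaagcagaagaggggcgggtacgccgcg
Cpt1a, chr19:3323051-3323350, plus strand: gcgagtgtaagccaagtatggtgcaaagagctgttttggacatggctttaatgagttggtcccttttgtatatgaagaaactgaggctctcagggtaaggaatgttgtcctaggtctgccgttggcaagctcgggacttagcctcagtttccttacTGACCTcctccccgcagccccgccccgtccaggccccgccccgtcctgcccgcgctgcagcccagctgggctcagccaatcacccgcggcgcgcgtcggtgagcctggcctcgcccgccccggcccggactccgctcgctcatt
Acadm, chr3:153944594-153944893, minus strand: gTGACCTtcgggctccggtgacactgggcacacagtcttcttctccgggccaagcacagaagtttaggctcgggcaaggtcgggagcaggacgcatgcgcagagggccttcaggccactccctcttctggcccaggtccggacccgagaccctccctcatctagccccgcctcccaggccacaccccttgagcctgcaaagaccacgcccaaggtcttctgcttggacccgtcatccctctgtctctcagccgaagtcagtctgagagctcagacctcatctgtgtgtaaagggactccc
Hadha and Hadhb, chr5:30155003-30155230, plus strand: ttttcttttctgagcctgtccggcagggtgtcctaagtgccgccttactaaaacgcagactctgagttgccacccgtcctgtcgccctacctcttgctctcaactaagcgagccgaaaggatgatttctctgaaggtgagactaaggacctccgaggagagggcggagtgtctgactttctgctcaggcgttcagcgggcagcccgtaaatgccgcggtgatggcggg
Capitals mark the hexamer AGGTCA or its reverse complement TGACCT, the half-site that nuclear receptors such as PPAR-alpha and the estrogen-related receptors read. It occurs once each in the Cpt1a and Acadm windows and in neither of the other printed stretches. Counted by gene, 5 of the 30 members with sequence hold it (16.7%: Acadm, Acadvl, Cpt1a, Echdc3 and Echs1). Counted by window, 16.3% of all 32851 windows of the same length do. The direct repeat AGGTCANAGGTCA, in which N is any base, occurs in 0 member windows and 0.0396% of all windows, and TCAAGGTCA, which contains the hexamer, in 0 member windows and 0.423% of all. Hadha and Hadhb run in opposite directions from starts 273 bases apart.

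The flavoprotein and the medium-chain dehydrogenase dominated the pathway. Etfb, the beta subunit of the electron transfer flavoprotein, averaged 65.6 ± 13.8 TPM over the 48 libraries (SD, range 39.04 to 100.5 TPM), and Acadm, the medium-chain acyl-CoA dehydrogenase, averaged 62.8 ± 20.1 TPM (19.6 to 107 TPM). Behind them stood Echdc2, a member of the enoyl-CoA hydratase family, at 32.2 ± 9.699 TPM (14.7 to 61.1 TPM), Hadh, the short-chain 3-hydroxyacyl-CoA dehydrogenase, at 31.3 ± 7.98 TPM (15.997 to 47.3 TPM), and Cpt1a, at 28.03 ± 8.52 TPM (10.3 to 44.6 TPM). With Acads and Etfa, these genes made up 53.1% of the summed mean TPM of all 36. In all, 16 members averaged at least 10 TPM, 11 averaged 5 to 10 TPM, 8 averaged 1 to 5 TPM and 1 averaged less.

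In the carnitine shuttle, the isoforms of the first enzyme stood far apart. Cpt1a, which makes long-chain acylcarnitines at the outer membrane and is inhibited by malonyl-CoA, exceeded Cpt1b, the form best known from muscle, in 48 of 48 libraries. Cpt1b averaged 0.342 ± 0.492 TPM, was listed at 0 in 17 libraries and reached at most 1.93 TPM. The plasma membrane carnitine transporter Slc22a5 averaged 12.4 ± 2.89 TPM, carnitine acetyltransferase Crat 8.703 ± 3.18 TPM, the inner membrane transferase Cpt2 8.41 ± 3.002 TPM and the acylcarnitine carrier Slc25a20 2.08 ± 0.903 TPM. The carrier was thus the lowest of these after Cpt1b, ranging over 0.641 to 4.78 TPM.

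The long-chain acyl-CoA synthetases were expressed at lower levels, with Acsl1 at 6.35 ± 2.14 TPM, Acsl5 at 3.302 ± 2.05 TPM, Acsl3 at 2.99 ± 1.72 TPM and Acsl4, which prefers arachidonic acid, at 1.33 ± 0.499 TPM. Acsl5 and Acsl3 also varied most between libraries after Cpt1b, with coefficients of variation of 62.0% and 57.6%, against 21.0% for Etfb. Among dehydrogenases of the main chain, Acads (short chain) averaged 22.8 ± 6.73 TPM, Acadl (long chain) 20.5 ± 6.41 TPM and Acadvl (very long chain) 16.7 ± 4.39 TPM, all below Acadm. Acad9, which also assembles respiratory complex I, averaged 13.6 ± 4.68 TPM, while Acad11 averaged 16.7 ± 5.16 TPM and Acad10 6.499 ± 2.19 TPM. The enzymes for branched acyl groups were lower, with Acadsb, the short/branched-chain dehydrogenase, at 7.53 ± 2.87 TPM and Acad8, the isobutyryl-CoA dehydrogenase, at 3.15 ± 1.36 TPM.

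Downstream of the dehydrogenases, the alpha subunit of the trifunctional protein was always above its partner: Hadha averaged 15.3 ± 4.22 TPM and Hadhb 6.61 ± 2.402 TPM, and Hadha was higher in 48 of 48 libraries, by a median of 2.28-fold (1.23 to 4.48). The short-chain hydratase Echs1 averaged 10.3 ± 2.81 TPM, the thiolase Acaa2 3.38 ± 1.43 TPM and Echdc3, of the hydratase family, 2.2995 ± 0.8998 TPM. Of the auxiliary enzymes, the isomerases Eci1 and Eci2 averaged 8.53 ± 2.66 TPM and 7.71 ± 2.203 TPM, the dienoyl-CoA reductase Decr1 7.11 ± 2.19 TPM, and the methylmalonyl-CoA epimerase Mcee, used for odd-chain acids, 5.99 ± 2.7003 TPM. Within the flavoprotein system, Etfb exceeded Etfa, the alpha subunit, in 48 of 48 libraries, by a median of 3.16-fold (2.09 to 5.99), and Etfa averaged 20.9 ± 5.76 TPM and Etfdh 10.3 ± 2.85 TPM. The thioesterases Acot13 and Acot2 averaged 15.3 ± 4.93 TPM and 2.42 ± 0.673 TPM, and Mlycd, which removes malonyl-CoA, 7.44 ± 2.23 TPM.

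**Figure D1:**
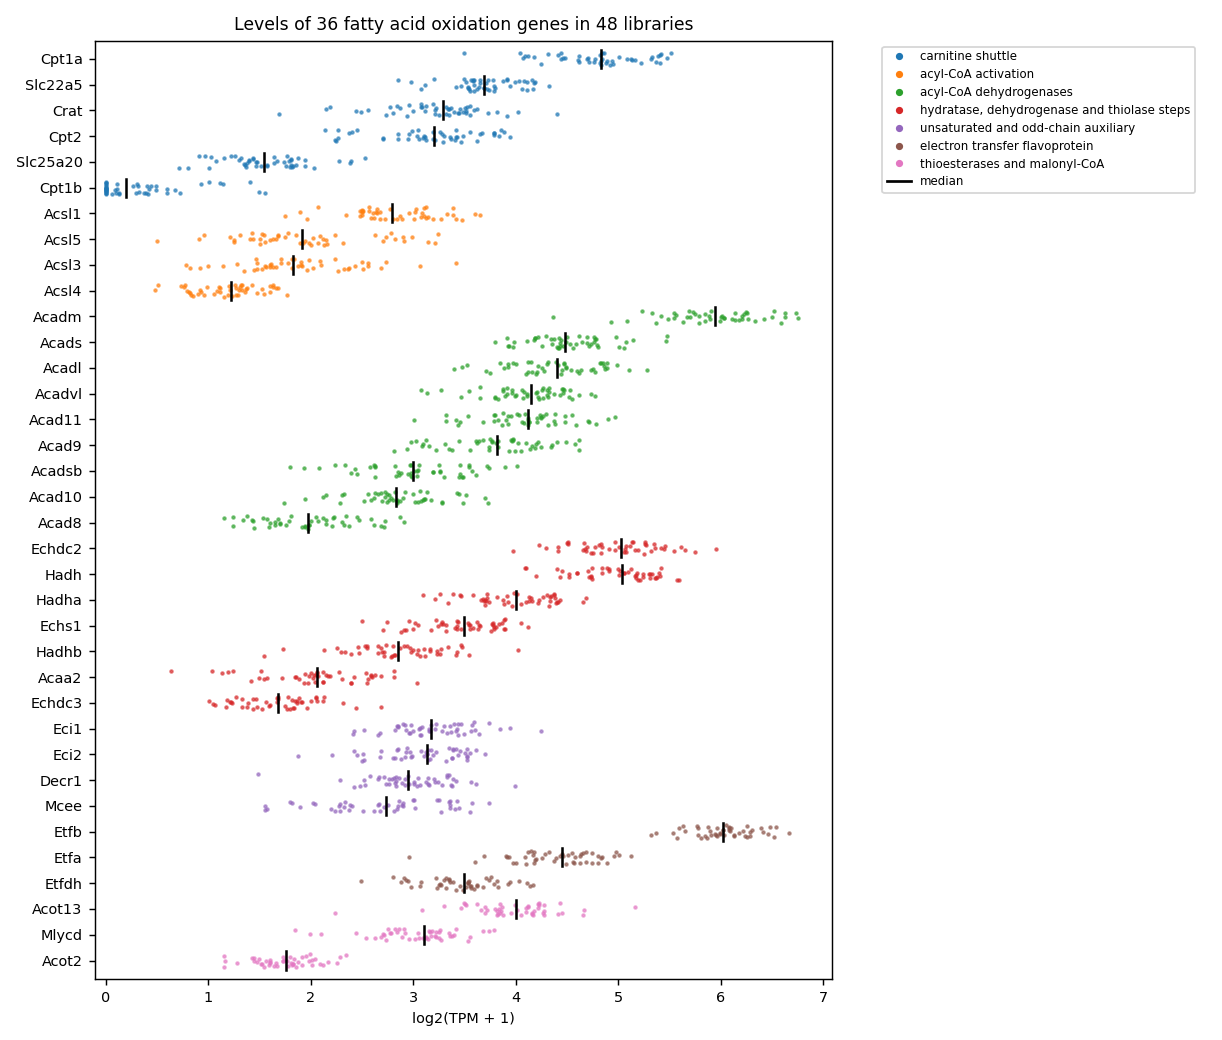
Level of each of the 36 genes in every library, as log2(TPM + 1), ordered by role; each dot is 1 of 48 libraries, its colour marks the role of the gene and the black tick is the median. Etfb and Acadm stand highest and Cpt1b lowest, with 17 libraries at 0.

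Summed over the 36 genes, the pathway had 553.9 ± 127 TPM in Akita KO dapagliflozin libraries and 431 ± 104 TPM in Akita KO vehicle libraries. The sum was 563 ± 65.4 TPM with dapagliflozin and 509 ± 73.5 TPM with semaglutide in Akita WT libraries, and 431 ± 120 TPM in Akita WT vehicle libraries. In non-diabetic mice it was 546 ± 81.5 TPM in KO dapagliflozin and 491 ± 113 TPM in KO vehicle libraries, and 419 ± 110 TPM in WT dapagliflozin and 519.7 ± 88.9 TPM in WT vehicle libraries (SD, 4 to 6 libraries each). The ranges of all these groups overlap with those of their controls. Taken instead as a share of nuclear protein-coding TPM, which leaves out the ribosomal and mitochondrial transcripts, the pathway held 0.533% ± 0.0471 in Akita KO dapagliflozin against 0.499% ± 0.0419 in Akita KO vehicle libraries. That share was 0.543% ± 0.0625 with dapagliflozin and 0.529% ± 0.0492 with semaglutide in Akita WT libraries, against 0.498% ± 0.0542 with vehicle. In non-diabetic libraries the shares were 0.523% ± 0.0578 in KO dapagliflozin against 0.451% ± 0.0212 in KO vehicle, and 0.473% ± 0.0465 in WT dapagliflozin against 0.521% ± 0.0655 in WT vehicle. Relative to the control, the differences were smaller on this scale than in summed TPM, except between the non-diabetic KO groups. Over the 48 libraries the summed TPM rose with the share of all TPM held by nuclear protein-coding genes (Pearson r = 0.872). The part of that share in the group differences was not tested.

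**Figure D2:**
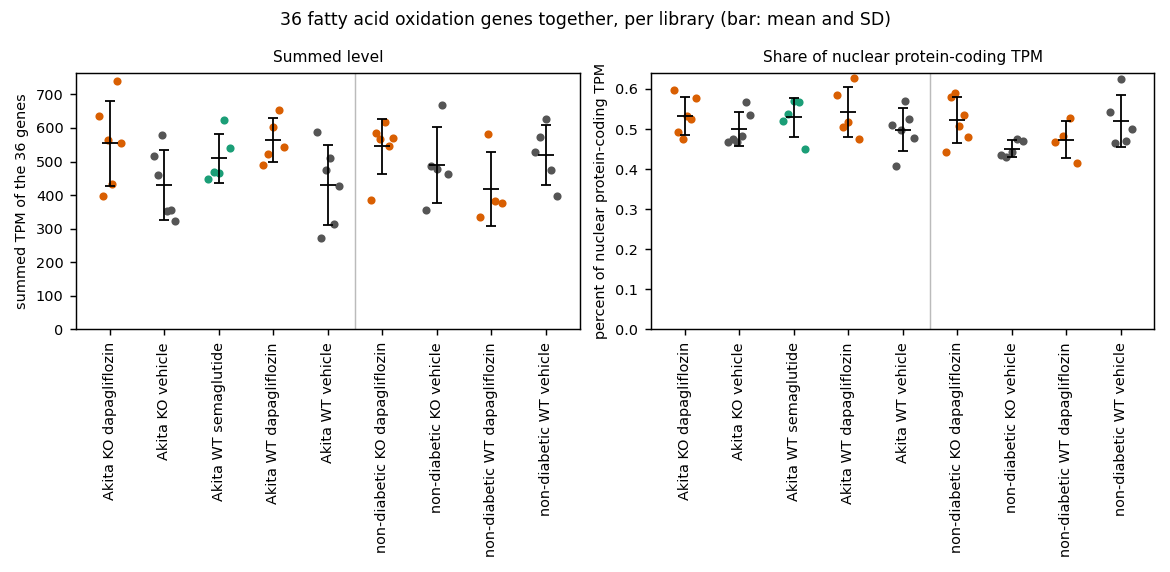
Summed TPM of the 36 genes (left) and their percent of nuclear protein-coding TPM (right) in each library by group; dots are libraries and bars give the mean and SD. The Akita dapagliflozin groups average 553.9 (KO) and 563 (WT) TPM, against 431 TPM in each Akita vehicle group, and all shares lie between 0.408% and 0.628%.

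In diabetic mice, dapagliflozin went with higher levels of most of the pathway. Averaged over genotypes, 80.8% of all genes tested were higher as well. ETF dehydrogenase was the member that passed the test. Etfdh (ENSMUSG00000027809.14, GRCm38 chromosome 3, 79603788 to 79629500, minus strand) had 8.58 TPM at the lowest, 10.7 TPM at the median and 16.99 TPM at the highest in Akita KO dapagliflozin libraries, and 6.34 TPM at the lowest, 7.14 TPM at the median and 10.6 TPM at the highest in Akita KO vehicle libraries. It had 10.4, 14.2, 11.1, 14.4 and 11.8 TPM in Akita WT dapagliflozin libraries, and 4.62 TPM at the lowest, 8.66 TPM at the median and 11.3 TPM at the highest in Akita WT vehicle libraries. All treated libraries (6 of 6 in KO and 5 of 5 in WT mice) lay above the vehicle median of their genotype, while the ranges still overlapped. Averaged over both genotypes, Etfdh rose by 0.58 ± 0.14 on the log2(TPM + 1) scale (SE, 95% interval 0.30 to 0.85), with an adjusted p of 0.0309 by limma over all 12742 genes. It was the only member of the 36 to pass, in a comparison where 104 genes, that is 0.816% of all genes tested, passed in either direction.

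The call on Etfdh was close to the threshold. Leaving out 1 library at a time, it passed in 13 of 23 fits, with log2 changes of 0.51 to 0.62 and adjusted p-values of 0.0113 to 0.0846. It missed the threshold without Akita KO dapagliflozin replicate 5 or 6, without Akita KO vehicle replicate 4, 5 or 6, without Akita WT dapagliflozin replicate 2, 4 or 5, and without Akita WT vehicle replicate 2 or 5. Without the 4 libraries with the fewest genes its change was 0.43 (adjusted p = 0.632), after rescaling by median-of-ratios size factors 0.34 (0.21), and after rescaling to nuclear protein-coding TPM 0.32 (0.208). These rescalings took away the median change of all genes, which was 0.17 as deposited and −0.01 after the size factors.

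Directly upstream of Etfdh, the flavoprotein subunit Etfa had 17.04 TPM at the lowest, 24.8 TPM at the median and 30.4 TPM at the highest in Akita KO dapagliflozin libraries, against 11.1 TPM at the lowest, 15.7 TPM at the median and 20.9 TPM at the highest in Akita KO vehicle libraries. In Akita WT mice Etfa had 22.3, 23.7, 22.8, 30.1 and 21.8 TPM with dapagliflozin, against 6.75 TPM at the lowest, 17.1 TPM at the median and 25.9 TPM at the highest with vehicle. The treated libraries of Akita WT mice all lay above the vehicle median, but the highest vehicle library lay within their range. Averaged over genotypes the difference in Etfa was 0.56 ± 0.16 (log2, SE, adjusted p = 0.0669), whereas Etfb, the other subunit, differed by 0.13 ± 0.13 (0.642).

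Decr1, which reduces the conjugated double bonds left by polyunsaturated acids, had the next smallest p-value. It had 5.64 TPM at the lowest, 7.65 TPM at the median and 14.9 TPM at the highest in Akita KO dapagliflozin libraries, against 4.36 TPM at the lowest, 5.28 TPM at the median and 6.59 TPM at the highest in Akita KO vehicle libraries. In Akita WT mice Decr1 had 7.04, 7.87, 9.301, 9.21 and 9.06 TPM with dapagliflozin, against 1.801 TPM at the lowest, 6.11 TPM at the median and 7.87 TPM at the highest with vehicle. The groups overlapped in both genotypes, and the averaged difference in Decr1 was 0.56 ± 0.15 (adjusted p = 0.0571). The other auxiliary enzymes differed by 0.20 ± 0.15 (Eci1), 0.40 ± 0.17 (Eci2) and 0.21 ± 0.24 (Mcee), and none of the 4 passed.

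At the entry of the pathway, Cpt1a had 20.7 TPM at the lowest, 32.2 TPM at the median and 44.6 TPM at the highest in Akita KO dapagliflozin libraries, against 15.8 TPM at the lowest, 22.7 TPM at the median and 34.3 TPM at the highest in Akita KO vehicle libraries. In Akita WT mice Cpt1a had 27.2, 27.5, 28.7, 33.04 and 36.5 TPM with dapagliflozin, against 10.3 TPM at the lowest, 22.3 TPM at the median and 27.8 TPM at the highest with vehicle, and the lowest treated libraries fell inside the vehicle range in both genotypes. The averaged difference in Cpt1a was 0.56 ± 0.17 (adjusted p = 0.0867). The other shuttle genes differed less, by 0.37 ± 0.21 for Cpt2, 0.45 ± 0.20 for Crat, 0.12 ± 0.17 for Slc25a20, 0.12 ± 0.15 for Slc22a5 and −0.21 ± 0.18 for Cpt1b. In Cpt1b a fold at such low levels says little, since most libraries hold under 1 TPM.

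Of the dehydrogenases, 9 of 9 had positive averaged differences and 7 had an unadjusted p under 0.05 by limma, beside 16.8% of all genes in that direction. Acad10, another member of the acyl-CoA dehydrogenase family, had 5.44 TPM at the lowest, 6.698 TPM at the median and 12.2 TPM at the highest in Akita KO dapagliflozin libraries, against 3.43 TPM at the lowest, 5.35 TPM at the median and 7.27 TPM at the highest in Akita KO vehicle libraries, and in Akita WT mice 5.62, 8.72, 9.92, 9.78 and 5.32 TPM with dapagliflozin, against 2.35 TPM at the lowest, 4.405 TPM at the median and 8.74 TPM at the highest with vehicle. Its averaged difference was 0.55 ± 0.17 (adjusted p = 0.0847), with 5 of 5 treated WT libraries above the vehicle median. Acadm, the most abundant dehydrogenase, averaged 75.2 ± 22.4 TPM in Akita KO dapagliflozin and 51.96 ± 12.9 TPM in Akita KO vehicle libraries, and 79.2 ± 14.4 TPM with dapagliflozin and 54.1 ± 19.4 TPM with vehicle in Akita WT mice. Its averaged difference was 0.56 ± 0.18 (0.107). Acadsb differed by 0.54 ± 0.18 (0.119), and the remaining dehydrogenases by 0.40 (Acadl), 0.33 (Acads), 0.42 (Acadvl), 0.23 (Acad8), 0.35 (Acad9) and 0.46 (Acad11). None of the 9 passed the test.

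**Figure D3:**
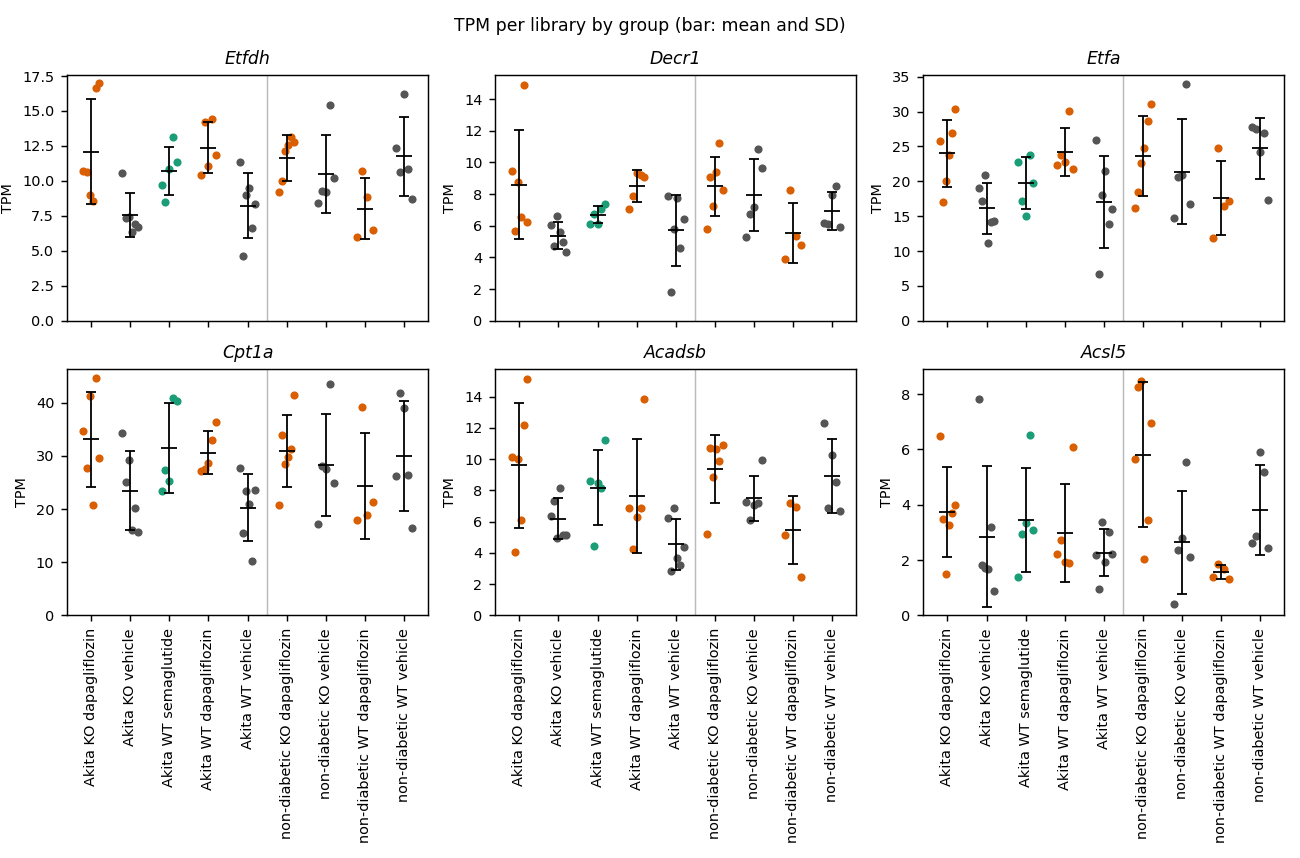
TPM of Etfdh, Decr1, Etfa, Cpt1a, Acadsb and Acsl5 in every library of the 9 groups; dots are libraries (orange dapagliflozin, green semaglutide, grey vehicle), bars give the mean and SD, and the vertical line separates Akita from non-diabetic groups. In Akita mice Etfdh averages 12.1 (KO) and 12.4 TPM (WT) with dapagliflozin, against 7.56 and 8.24 TPM with vehicle.

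Over the whole pathway, 34 of 36 members had a positive averaged difference in Akita mice with dapagliflozin, beside 80.8% of all genes tested. An unadjusted p under 0.05 in that direction was reached by 17 of 36 members, beside 16.8% of all genes. The member median was 0.35 and the median of all genes 0.17 (log2), a gap of 0.18. The gap was 0.13 under median-of-ratios scaling, 0.12 under rescaling to nuclear protein-coding TPM and 0.12 without the 4 libraries with the fewest genes. On those 3 scales 26, 25 and 26 members were positive, beside 48.4%, 44.8% and 53.3% of all genes, and 6, 5 and 3 had an unadjusted p under 0.05 in that direction, beside 5.79%, 4.88% and 3.23%. The 6 genes Cpt1a, Acad10, Acad11, Decr1, Etfa and Etfdh did so both as deposited and under median-of-ratios scaling.

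By role, the median difference was largest in the flavoprotein system (0.56 over 3 genes), followed by the dehydrogenases (0.42 over 9), the hydratase, dehydrogenase and thiolase steps (0.35 over 7) and the auxiliary enzymes (0.31 over 4). Acyl-CoA activation (0.25 over 4), the carnitine shuttle (0.25 over 6) and the last role, thioesterases and malonyl-CoA (0.24 over 3), stood lower, and differences between roles were not tested. Within the hydratase to thiolase steps the values were 0.41 (Hadh), 0.32 (Hadha), 0.35 (Hadhb), 0.37 (Echs1), 0.36 (Echdc2), 0.13 (Echdc3) and 0.09 (Acaa2), none of which passed. For the synthetases they were 0.03 (Acsl1), 0.29 (Acsl3), 0.22 (Acsl4) and 0.33 (Acsl5), and for the thioesterase group 0.50 (Acot13), −0.02 (Acot2) and 0.24 (Mlycd). Acot2 and Cpt1b were the 2 members with a negative value.

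Markers of the late proximal tubule (S3), a neighbouring segment, moved with these differences. All 5 of 5 S3 markers had positive averaged differences with dapagliflozin in Akita mice, beside 80.8% of all genes. By limma, 3 had an unadjusted p under 0.05 upward, beside 16.8% of all genes, and 0 passed, beside 0.816%. The median of the 5 markers was 0.72 (log2). Their summed level was 146 to 313 TPM in Akita KO dapagliflozin against 72.4 to 346 TPM in Akita KO vehicle libraries, and 158 to 428 TPM with dapagliflozin against 78.1 to 315 TPM with vehicle in Akita WT libraries. Of the list, Slc22a7 was listed at 0 in 1 library and Cyp7b1 in 2, while Slc7a13, Slco1a1 and Atp11a were above 0 in all. By mean TPM over the 48 libraries, Atp11a (184.5) took most of the S3 sum. Slc7a13 (32.6), Slco1a1 (29.9), Slc22a7 (2.02) and Cyp7b1 (1.22) followed, so S3 sums here and below mainly reflect Atp11a. The 8 early proximal tubule markers summed to 889 to 2123 TPM in Akita KO dapagliflozin against 843 to 1829 TPM in Akita KO vehicle libraries, and 1174 to 1705 TPM with dapagliflozin against 989.8 to 1589.6 TPM with vehicle in Akita WT libraries. The share of nuclear protein-coding TPM was 10.4% ± 2.32 in Akita KO dapagliflozin and 8.78% ± 2.65 in Akita KO vehicle libraries, and 10.4% ± 1.30 with dapagliflozin and 8.59% ± 2.02 with vehicle in Akita WT libraries (SD). Over the 48 libraries Atp11a averaged more than the early marker Slc5a2 (172 TPM), and how cleanly the list marks S3 here was not tested. The part of the S3 markers in the result was not tested either.

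Taken by genotype, no member passed in either, where 0% of all genes passed by limma. In Akita WT mice, 30 of 36 differences were positive, beside 77.5% of all genes, and 11 members had an unadjusted p under 0.05 upward, beside 9.68% of all genes. Etfdh differed by 0.57 ± 0.20 (5 of 5 libraries above the vehicle median, adjusted p = 0.326) and Acad10 by 0.68 ± 0.25 (5 of 5, 0.335). In Akita KO mice, 33 of 36 differences were positive, beside 74.1% of all genes, and 6 members had an unadjusted p under 0.05 upward, beside 6.96% of all genes. There Etfdh differed by 0.58 ± 0.19 (6 of 6 above the vehicle median, 0.643) and Etfa by 0.55 ± 0.22 (6 of 6, 0.648). Both effects were positive in 28 members. In Akita WT mice the 11 members became 5 under median-of-ratios scaling (beside 4.6% of all genes) and 0 without the 4 low libraries (beside 2.64%), where 27 members were positive beside 58.5% of all genes. Single libraries moved that count as far as 4 without Akita WT vehicle replicate 2 and 6 without replicate 5, and up to 14 without replicate 1. In Akita KO mice the 6 became 2 under median-of-ratios scaling (beside 3.3%) and 3 without the low libraries (beside 1.62%), where 28 were positive beside 47.6%. There the count was 3 without Akita KO dapagliflozin replicate 5 or vehicle replicate 5, 4 without dapagliflozin replicate 1 or 3 or vehicle replicate 4 or 6, 12 without dapagliflozin replicate 2 or 4 and 13 without vehicle replicate 1 or 3. For 0 of 36 members were the groups without overlap in either genotype, beside 1.02% of all genes in WT and 0.141% in KO.

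The 2 effects rest on separate libraries, and their difference was tested directly. With KO minus WT of the dapagliflozin effect, 17 of 36 members were positive (beside 44.1% of all genes), 0 passed (0% of all genes by limma), and 1 had an unadjusted p under 0.05, downward, beside 1.15% of all genes. That gene was Eci1, the isomerase that shifts the double bonds of unsaturated acids. Eci1 had 4.35 TPM at the lowest, 7.36 TPM at the median and 10.9 TPM at the highest in Akita KO dapagliflozin libraries, against 4.34 TPM at the lowest, 9.07 TPM at the median and 12.4 TPM at the highest in Akita KO vehicle libraries, and in Akita WT mice 10.3, 7.31, 14.4, 18.02 and 9.84 TPM with dapagliflozin, against 4.73 TPM at the lowest, 8.02 TPM at the median and 9.72 TPM at the highest with vehicle. The highest Eci1 values of these groups belonged to treated WT libraries. The difference between the effects on Eci1 was −0.77 ± 0.31 (log2, unadjusted p = 0.0156, adjusted p = 1), and that on Echdc3 was −0.44 ± 0.30 (1). The interval for Etfdh, −0.53 to 0.57 around 0.02, holds values of either sign.

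Semaglutide, labelled in Akita WT mice only, was set against the same 6 vehicle libraries as dapagliflozin, so signs shared by the 2 agents are not separate observations, and no member passed. Acadsb, which oxidizes short branched acyl groups such as those from isoleucine, had 8.596, 4.47, 8.503, 8.13 and 11.2 TPM with semaglutide, against 2.83 TPM at the lowest, 4.06 TPM at the median and 6.87 TPM at the highest with vehicle, a difference of 0.73 ± 0.26 (log2, adjusted p = 0.823). Cpt1a had 23.4, 27.3, 25.3, 40.95 and 40.3 TPM with semaglutide, against 10.3 TPM at the lowest, 22.3 TPM at the median and 27.8 TPM at the highest with vehicle, a difference of 0.64 ± 0.25 (0.836). All 5 of 5 semaglutide libraries lay above the vehicle median for both genes, and both pairs of groups overlapped. Etfdh differed by 0.37 ± 0.20 (0.851), with 9.70, 8.51, 10.8, 13.1 and 11.3 TPM in semaglutide libraries.

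Across the pathway, 31 of 36 members were higher with semaglutide than with vehicle (beside 70.8% of all genes), 0 passed (0% of all genes by limma), and 4 had an unadjusted p under 0.05, beside 5.2% of all genes in that direction. The member median was 0.29 and that of all genes 0.13. The gap of 0.16 was 0.12 under median-of-ratios scaling, 0.12 under rescaling to nuclear protein-coding TPM, 0.08 with capture number as a covariate and 0.02 without the libraries with the fewest genes, where 19 of 36 were positive (beside 49.1% of all genes) and 0 had an unadjusted p under 0.05. Leaving out 1 library, 1 member without Akita WT vehicle replicate 5, 2 without vehicle replicate 2 or semaglutide replicate 5 or 6, and 9 without vehicle replicate 1 had such a p upward. The number in a library's title, read as its capture number, was 88 to 99 in semaglutide libraries and 1 to 82 in the Akita WT vehicle libraries, so that number and the treatment cannot be told apart. With that number as a covariate, 0 members had an unadjusted p under 0.05. The 5 S3 markers were all higher with semaglutide (median 0.76, 0 passed), with sums of 82.1 to 319 TPM against 78.1 to 315 TPM with vehicle. Markers of the thick ascending limb were also higher in 3 of 3 tested (median 0.66, 0 passed), with sums of 11.3 to 86.2 TPM with semaglutide against 9.20 to 97.5 TPM with vehicle, and the part of either list in the result was not tested.

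Semaglutide was also set against dapagliflozin in Akita WT mice. Here 14 of 36 members were positive, beside 39% of all genes, and 0 reached an adjusted or an unadjusted p under 0.05 by limma, beside 0% and 2.61% of all genes. Eci1 had 8.28, 6.795, 8.31, 11.2 and 7.42 TPM with semaglutide, against 10.3, 7.31, 14.4, 18.02 and 9.84 TPM with dapagliflozin, a difference of −0.42 ± 0.23 (log2, 95% interval −0.89 to 0.05, adjusted p = 1). Acads, the short-chain dehydrogenase, had 16.3, 17.2, 24.1, 20.6 and 20.2 TPM with semaglutide, against 24.9, 26.2, 26.5, 34.3 and 19.8 TPM with dapagliflozin, a difference of −0.39 ± 0.24 (−0.87 to 0.08, 1), with 5 of 5 semaglutide libraries below the dapagliflozin median. For Etfdh the difference was −0.20 ± 0.21 (−0.61 to 0.22), and for Cpt1a 0.01 ± 0.26 (−0.52 to 0.53). These intervals hold 0 but are wide, and do not show that the agents act alike. The agents were given at unlike doses and by unlike routes.

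**Figure D4:**
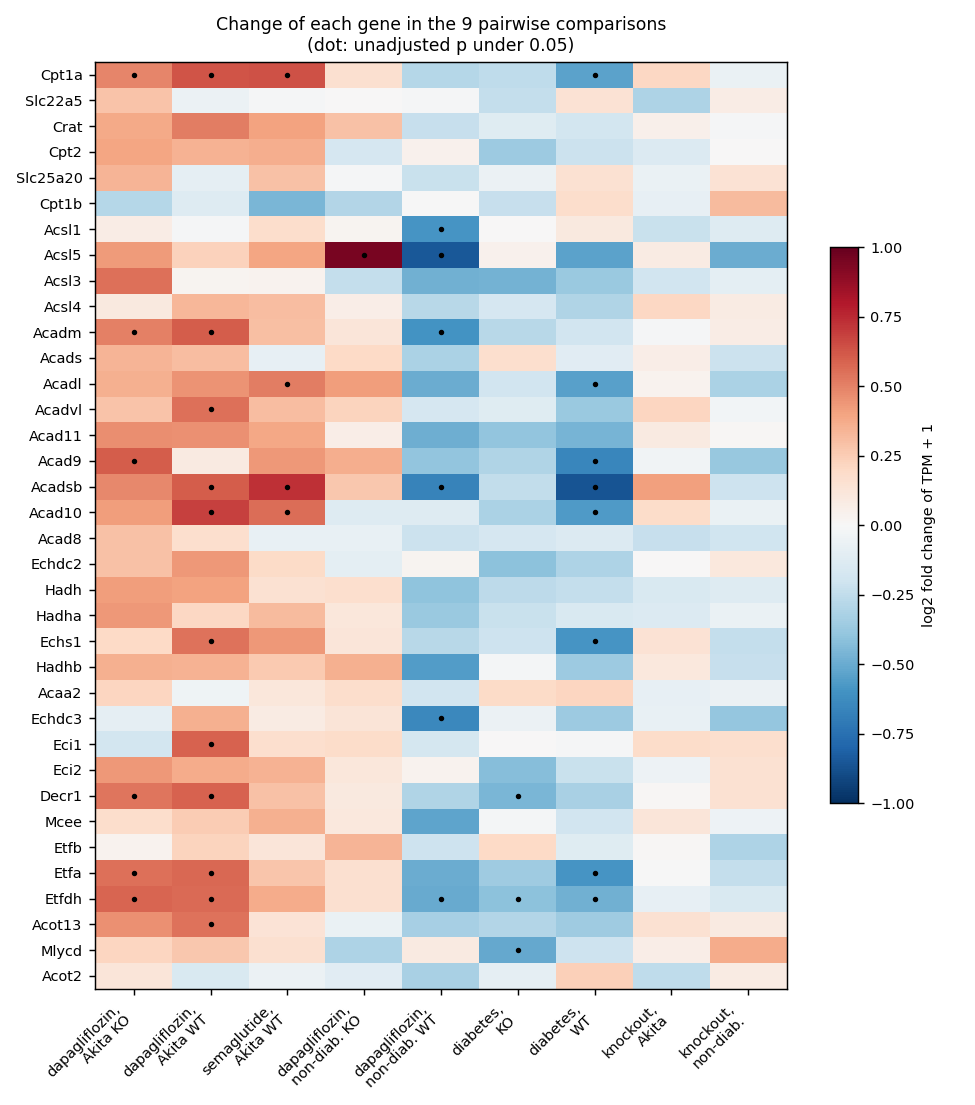
Log2 differences of the 36 genes (rows, by role) in 9 pairwise comparisons (columns), from blue (−1) to red (1); a dot marks an unadjusted p under 0.05. In Akita WT mice the dapagliflozin column holds 30 positive values of 36 and 11 dots. Among all genes tested, 77.5% were positive there and 9.68% reached that p upward. In Akita KO mice it holds 33 of 36 and 6 dots, beside 74.1% and 6.96% of all genes. Etfdh is the only member past the adjusted threshold in the averaged test.

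Diabetes itself was compared in vehicle mice, whose Akita libraries are the same ones against which both drugs were set. Acadsb had 2.83 TPM at the lowest, 4.06 TPM at the median and 6.87 TPM at the highest in Akita WT vehicle libraries, against 12.3, 6.86, 10.2, 8.57 and 6.701 TPM in non-diabetic WT vehicle libraries. All 6 of 6 Akita libraries lay below the non-diabetic median, but the highest Akita library lay above the lowest non-diabetic library. The difference in Acadsb was −0.86 ± 0.26 (log2, adjusted p = 0.352). Echs1, the short-chain hydratase, had 4.65 TPM at the lowest, 8.02 TPM at the median and 11.6 TPM at the highest in Akita WT, against 12.7, 15.6, 13.9, 10.1 and 8.68 TPM in non-diabetic WT vehicle libraries, a difference of −0.59 ± 0.23 (0.483) with 6 of 6 Akita libraries below the non-diabetic median. No member passed, where 0.0235% of all genes passed by limma, and 8 of 36 had an unadjusted p under 0.05 downward, beside 7.01% of all genes. Under median-of-ratios scaling 5 were downward and 2 upward at that p (beside 4.61% and 3.73%), and without the low libraries 2 were downward (beside 2.05%) and 19 of 36 positive (beside 46.9%). The downward count was 3 without Akita WT vehicle replicate 2, 4 without non-diabetic WT vehicle replicate 4, and 5 without Akita replicate 5 or non-diabetic replicate 3.

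In Sglt1 KO mice, Etfdh had 6.34 TPM at the lowest, 7.14 TPM at the median and 10.6 TPM at the highest in Akita KO vehicle libraries, against 8.41, 9.25, 9.21, 15.4 and 10.2 TPM in non-diabetic KO vehicle libraries. The difference in Etfdh was −0.41 ± 0.20 (adjusted p = 0.336, 5 of 6 below the non-diabetic median). Decr1 had 4.36 TPM at the lowest, 5.28 TPM at the median and 6.59 TPM at the highest in Akita KO vehicle libraries, against 5.29, 6.72, 7.19, 10.8 and 9.66 TPM in non-diabetic KO vehicle libraries, a difference of −0.46 ± 0.22 (0.341, 6 of 6). In both genes the upper end of the Akita range reached into the non-diabetic range. No member passed (0% of all genes by limma), and 3 of 36 had an unadjusted p under 0.05 downward, beside 14% of all genes. Under median-of-ratios scaling 0 were downward and 2 upward (beside 3.86% and 4.03%), and without the low libraries 0 were downward (beside 3.21%) and 15 of 36 positive (beside 39%). The downward count was also 0 without Akita KO vehicle replicate 4, 5 or 6 or non-diabetic KO vehicle replicate 5, and 1 without non-diabetic replicate 6.

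Averaged over genotypes, Etfdh differed by −0.45 ± 0.14 (adjusted p = 0.101), Acadsb by −0.55 ± 0.18 (0.122) and Etfa by −0.48 ± 0.16 (0.132) between Akita and non-diabetic vehicle mice. Of the 36, 0 passed, where 0.557% of all genes passed by limma, and 11 had an unadjusted p under 0.05 downward, beside 18.1% of all genes. That direction turned with the scaling: under median-of-ratios scaling 0 members were downward and 4 upward at that p (Acads, Acaa2, Etfb and Acot2), beside 5.01% and 4.77% of all genes, and without the low libraries 1 was downward, beside 3.51%. The member median was −0.25 and the median of all genes −0.20. Of the members 6 were positive as deposited, beside 15.6% of all genes. Under median-of-ratios scaling 17 were, beside 49.3% of all genes, and the member median was −0.03. Without the libraries with the fewest genes 16 were, beside 40.8%, and the member median was −0.03. In Akita WT mice alone the member median was −0.27 as deposited, −0.06 under median-of-ratios scaling and 0.02 without those libraries, so its sign depended on them. In Akita KO mice it was −0.23 as deposited and 0.08 under median-of-ratios scaling.

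In Akita WT vehicle mice the role medians were −0.48 in the flavoprotein system and −0.47 among the dehydrogenases (0 of 9 positive), against −0.02 in the carnitine shuttle (3 of 6 positive), each without a test. S3 markers were lower in Akita mice than in non-diabetic mice as well. Over both genotypes 0 of 5 were positive, beside 15.6% of all genes, with a median of −0.87. Slco1a1 (−1.14 ± 0.25, adjusted p = 0.0256) and Slc7a13 (−0.87 ± 0.22, 0.0488) fell, where 0.557% of all genes passed by limma. The sum of the 5 S3 markers was 72.4 to 346 TPM in Akita KO and 78.1 to 315 TPM in Akita WT vehicle libraries. It was 226 to 376 TPM in non-diabetic KO and 224 to 406 TPM in non-diabetic WT vehicle libraries. Without the low libraries neither S3 marker passed (adjusted p = 0.629 for Slco1a1 and 0.755 for Slc7a13). Neither passed under median-of-ratios scaling (0.0956 and 0.163) or under rescaling to nuclear protein-coding TPM (0.0689 and 0.15). Slco1a1 passed in 15 of 22 fits that each left out 1 library, and Slc7a13 in 7. Other lists were lower in Akita mice too, with no gene called. Thick ascending limb markers had 0 of 3 positive in WT mice (median −1.26), beside 25.6% of all genes. By limma 3 had an unadjusted p under 0.05 downward, beside 7.01%. Their sums were 9.20 to 97.5 TPM in Akita WT against 35.2 to 134 TPM in non-diabetic WT vehicle libraries. Over both genotypes endothelial markers had a median of −0.44 (0 of 5 positive, 3 at that p) and immune markers −0.57 (0 of 4 positive, 2 at that p). Of all genes, 15.6% were positive there and 18.1% were at that p downward. The part of these lists in the member differences was not tested. The diabetes effect in KO minus that in WT mice was 0.61 ± 0.37 for Acadsb and −0.38 ± 0.30 for Slc22a5, with 20 of 36 members positive (beside 39.8% of all genes), 0 passing and 0 at an unadjusted p under 0.05 by limma, beside 0% and 3.19% of all genes.

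In non-diabetic WT mice, dapagliflozin went with lower levels of most members, the opposite sign to that in Akita WT mice, and no member passed. Acsl5, a long-chain acyl-CoA synthetase, had 1.38, 1.84, 1.68 and 1.32 TPM with dapagliflozin, against 2.63, 2.86, 5.91, 5.19 and 2.43 TPM with vehicle. It was the 1 member whose groups did not overlap, beside 1.15% of all genes, and its difference was −0.85 ± 0.37 (log2, adjusted p = 0.981). Echdc3 had 1.32, 2.65, 1.52 and 1.01 TPM with dapagliflozin, against 3.004, 2.698, 4.44, 2.64 and 2.48 TPM with vehicle, a difference of −0.64 ± 0.24 (0.981). Acadsb had 5.15, 7.23, 6.93 and 2.49 TPM with dapagliflozin, against 12.3, 6.86, 10.2, 8.57 and 6.701 TPM with vehicle, a difference of −0.67 ± 0.29 (0.981). For Echdc3 and Acadsb all 4 of 4 treated libraries lay below the vehicle median. In all, 4 of 36 members were positive (beside 29% of all genes), 0 passed (0% of all genes by limma) and 6 had an unadjusted p under 0.05 downward, beside 3.34% of all genes. That count was 1 (Echdc3) under median-of-ratios scaling, beside 2.68%, and 2 with capture number as a covariate, beside 2.21%. It was 0 without dapagliflozin replicate 6, 1 without vehicle replicate 4, 2 without dapagliflozin replicate 2 and 11 without dapagliflozin replicate 3. Marker lists were lower as well, with 0 of 8 early proximal tubule (median −0.33), 0 of 5 S3 (−0.49), 0 of 3 thick ascending limb (−0.54) and 0 of 4 immune markers (−0.55) positive and none called, beside a median of −0.13 for all genes, and their part in the result was not tested.

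In non-diabetic KO mice most differences had the other sign. Acsl5 had 2.05 TPM at the lowest, 6.302 TPM at the median and 8.49 TPM at the highest with dapagliflozin, against 0.4195, 2.36, 2.81, 5.54 and 2.09 TPM with vehicle, a difference of 0.95 ± 0.34 (adjusted p = 1). Etfb had 57.9 TPM at the lowest, 66.1 TPM at the median and 87.1 TPM at the highest with dapagliflozin, against 39.04, 49.3, 61.4, 74.6 and 53.7 TPM with vehicle, a difference of 0.34 ± 0.20 (1). All 6 of 6 treated libraries lay above the vehicle median for Etfb and 5 of 6 for Acsl5. In this comparison 26 of 36 members were positive, beside 40.2% of all genes, 0 passed, where 0.00785% of all genes passed by limma, and 1 had an unadjusted p under 0.05 upward, beside 0.989% of all genes. That count was 0 without vehicle replicate 1, 2 without vehicle replicate 2 or dapagliflozin replicate 1, 3 without vehicle replicate 5, and 4 under median-of-ratios scaling (beside 3.23%). The member median was −0.31 in WT and 0.12 in KO mice, and under median-of-ratios scaling −0.15 and 0.18, so neither sign changed with the scaling. A negative value in WT and a positive one in KO mice was shared by 25 members. In KO mice the early proximal tubule list had 5 of 8 positive (median 0.09), the S3 list 4 of 5 (0.17) and the thick ascending limb list 3 of 3 (0.34), none called, and their part in the result was not tested. Averaged over genotypes, the smallest p-values belonged to Acot2, a mitochondrial thioesterase (−0.22 ± 0.14, adjusted p = 0.979), and Echdc3 (−0.26 ± 0.16, 0.979), with 0 of 36 at an adjusted or unadjusted p under 0.05 by limma, beside 0% and 3.69% of all genes.

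Whether dapagliflozin acted differently in diabetic and non-diabetic WT mice was tested as an interaction, the effect in Akita WT minus that in non-diabetic WT mice. Etfdh had an interaction of 1.07 ± 0.30 (log2, 95% interval 0.48 to 1.67, adjusted p = 0.272), with means of 12.4 against 8.24 TPM in Akita WT dapagliflozin and vehicle mice, and 8.02 against 11.7 TPM in non-diabetic WT dapagliflozin and vehicle mice. For Acadsb the interaction was 1.27 ± 0.39 (0.278), for Acadm 1.20 ± 0.39 (0.319), for Etfa 1.07 ± 0.34 (0.319) and for Echdc3 1.00 ± 0.33 (0.324). None of the 36 passed (0% of all genes by limma), while 34 were positive, beside 80.2% of all genes, and 18 had an unadjusted p under 0.05 upward, beside 10.9% of all genes. The member median was 0.73, the median of all genes 0.32 and the gap 0.41. The gap was 0.34 under median-of-ratios scaling, 0.34 under rescaling to nuclear protein-coding TPM and 0.31 without the libraries with the fewest genes, and it ran from 0.30 to 0.47 when 1 library at a time was left out. The count of 18 was less stable, at 7 under median-of-ratios scaling (beside 4.15% of all genes), 8 under rescaling to nuclear protein-coding TPM (beside 3.84%) and 5 without the low libraries (beside 4.54%), where 30 members were positive beside 70% of all genes. Leaving out 1 library gave 11 without non-diabetic WT dapagliflozin replicate 2 and 12 to 20 otherwise.

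Acadm shows the crossing values of this interaction. It had 63.5, 69.6, 97.7, 90.7 and 74.8 TPM with dapagliflozin in Akita WT mice, against 29.5 TPM at the lowest, 52.1 TPM at the median and 79.6 TPM at the highest with vehicle. In non-diabetic WT mice Acadm had 19.6, 63.04, 52.1 and 33.1 TPM with dapagliflozin, against 49.97, 72.9, 97.7, 46.4 and 41.6 TPM with vehicle. The groups of each pair overlapped, with the treated mean above the vehicle mean in Akita WT mice and below it in non-diabetic WT mice. In KO mice the median of the corresponding interaction over the members was 0.25, beside 0.22 for all genes, and −0.01 under median-of-ratios scaling, where its sign turned. The smallest p-values there belonged to Acsl3 (0.79 ± 0.46, adjusted p = 0.876) and Acad10 (0.55 ± 0.34, 0.876). In KO mice 31 members were positive (beside 76.3% of all genes), 0 passed and 0 had an unadjusted p under 0.05 by limma, beside 0% and 4.98% of all genes. S3 markers had a median interaction of 1.14 in WT mice (5 of 5 positive, beside 80.2% of all genes, and 0 passed). Their sums were 158 to 428 TPM against 78.1 to 315 TPM in Akita WT dapagliflozin and vehicle libraries. In non-diabetic WT dapagliflozin and vehicle libraries the sums were 220.1 to 316 TPM against 224 to 406 TPM. Thick ascending limb markers had a median interaction of 1.04 (3 of 3 positive, 0 passed) and immune markers 0.74 (4 of 4, 0 passed), and the part of these lists in the result was not tested.

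**Figure D5:**
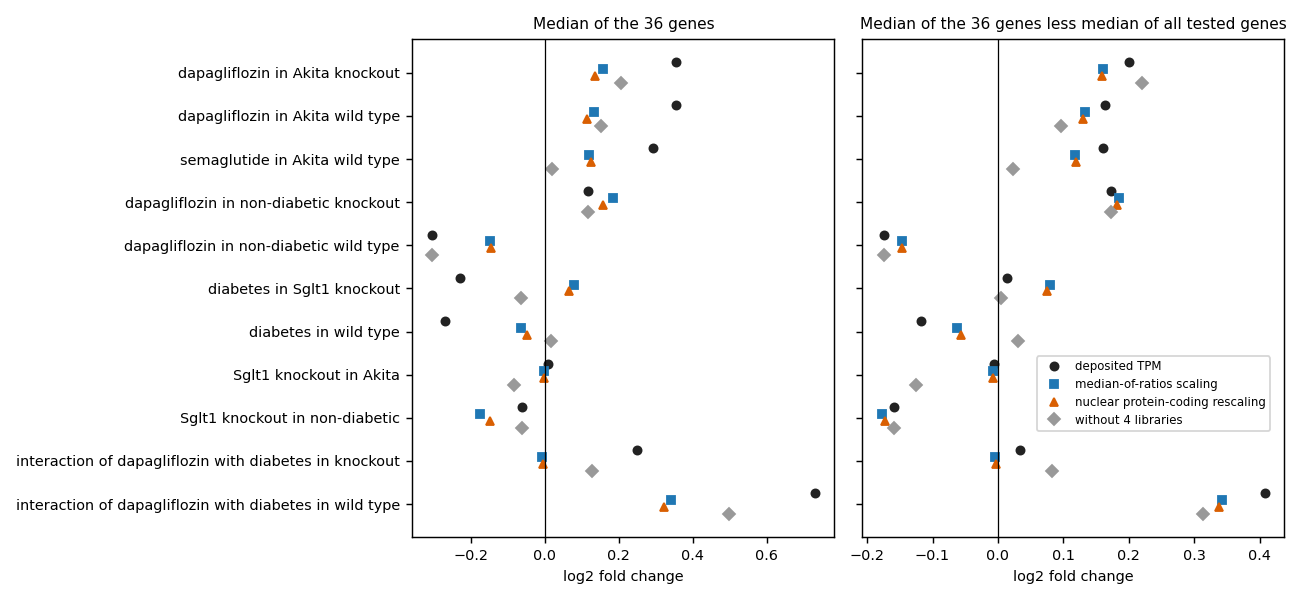
Median log2 difference of the 36 genes (left) and the same less the median of all tested genes (right) in 11 comparisons, on the deposited TPM scale, after 2 rescalings and without the 4 libraries with the fewest genes. The interaction in wild type has the highest gap (0.41 as deposited), and the diabetes medians, −0.27 in wild type as deposited, move to near 0 after rescaling.

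Loss of Sglt1 was not accompanied by a called difference in any member. In non-diabetic vehicle mice, Echdc3 had 1.42, 1.59, 2.76, 3.17 and 1.702 TPM in KO libraries, against 3.004, 2.698, 4.44, 2.64 and 2.48 TPM in WT libraries, a difference of −0.39 ± 0.23 (log2, adjusted p = 0.981). Etfb had 39.04, 49.3, 61.4, 74.6 and 53.7 TPM in KO libraries, against 76.9, 67.5, 75.5, 58.8 and 61.4 TPM in WT libraries, a difference of −0.31 ± 0.20 (0.981). The KO and WT ranges of both genes overlapped. By limma, 0 of 36 members passed and 0 had an unadjusted p under 0.05, beside 0.0235% and 4.61% of all genes. The member median was −0.06, below the 0.10 of all genes, and under median-of-ratios scaling it was −0.18 with 4 members at an unadjusted p under 0.05 downward (Acadl, Echs1, Echdc3 and Etfb), beside 3.67% of all genes.

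In Akita vehicle mice, Acadsb had 4.97 TPM at the lowest, 5.77 TPM at the median and 8.15 TPM at the highest in KO libraries, against 2.83 TPM at the lowest, 4.06 TPM at the median and 6.87 TPM at the highest in WT libraries, a difference of 0.41 ± 0.25 (adjusted p = 1), and 6 of 6 KO libraries lay above the WT median. Slc22a5, the carnitine transporter, differed by −0.31 ± 0.20 (1), at 10.6 ± 3.02 TPM in KO and 13.2 ± 3.11 TPM in WT libraries (SD, n = 6 each). By limma, 0 of 36 passed and 0 had an unadjusted p under 0.05, beside 0.0157% and 1.95% of all genes, and the member median was 0.01. Averaged over the 4 pairs of KO and WT groups on vehicle or dapagliflozin, Acadsb differed by 0.30 ± 0.13 (0.921) and Acsl5 by 0.29 ± 0.17 (0.921). In that average 0 passed, where 0.0235% of all genes passed, and 1 member had an unadjusted p under 0.05 upward, beside 4.11% of all genes.

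The other most and least abundant members were followed through all 9 groups. Echdc2 averaged 33.5 ± 11.6 TPM in Akita KO dapagliflozin and 27.2 ± 9.33 TPM in Akita KO vehicle libraries, 37.1 ± 14.3 TPM with dapagliflozin, 29.9 ± 4.49 TPM with semaglutide and 26.6 ± 6.42 TPM with vehicle in Akita WT libraries, 33.8 ± 10.8 TPM in non-diabetic KO dapagliflozin and 35.6 ± 8.18 TPM in non-diabetic KO vehicle libraries, and 34.97 ± 14.3 TPM in non-diabetic WT dapagliflozin and 32.6 ± 6.08 TPM in non-diabetic WT vehicle libraries. Hadh averaged 34.2 ± 8.69 TPM in Akita KO dapagliflozin and 25.8 ± 8.72 TPM in Akita KO vehicle libraries, 36.9 ± 3.14 TPM with dapagliflozin, 31.5 ± 7.33 TPM with semaglutide and 28.6 ± 8.17 TPM with vehicle in Akita WT libraries, 34.3 ± 7.46 TPM in non-diabetic KO dapagliflozin and 30.8 ± 9.55 TPM in non-diabetic KO vehicle libraries, and 25.8 ± 9.71 TPM in non-diabetic WT dapagliflozin and 33.1 ± 4.95 TPM in non-diabetic WT vehicle libraries. Each drug-treated mean lay within the range of its vehicle libraries, except that of Echdc2 in Akita WT dapagliflozin libraries. With dapagliflozin averaged over Akita mice, the differences were 0.36 ± 0.18 (adjusted p = 0.276) for Echdc2 and 0.41 ± 0.16 (0.164) for Hadh.

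At the low end, group means of Slc25a20 ran from 1.31 ± 0.354 TPM (non-diabetic WT dapagliflozin) to 2.88 ± 1.56 TPM (Akita WT semaglutide), those of Acsl4 from 0.934 ± 0.389 TPM (Akita WT vehicle) to 1.62 ± 0.426 TPM (non-diabetic KO dapagliflozin), those of Echdc3 from 1.62 ± 0.713 TPM (non-diabetic WT dapagliflozin) to 3.11 ± 1.32 TPM (Akita WT dapagliflozin) and those of Acot2 from 1.68 ± 0.902 TPM (non-diabetic WT dapagliflozin) to 2.904 ± 0.7801 TPM (Akita WT vehicle). Cpt1b means ran from 0.03504 ± 0.0482 TPM (Akita WT semaglutide) to 0.639 ± 0.579 TPM (non-diabetic KO vehicle). The SD of Cpt1b was at least as large as its mean in 8 of 9 groups, so no order among its group levels can be read. With semaglutide in Akita WT mice, Slc25a20, the carrier that exchanges acylcarnitine for carnitine, had 1.56, 2.49, 1.34, 4.25 and 4.78 TPM, against 1.71, 1.04, 2.46, 2.51 and 1.51 TPM with dapagliflozin and 0.7496 TPM at the lowest, 1.81 TPM at the median and 3.86 TPM at the highest with vehicle. Its difference from vehicle was 0.29 ± 0.24 (adjusted p = 0.894) and from dapagliflozin 0.38 ± 0.25 (1). For Acsl4 the averaged dapagliflozin difference in Akita mice was 0.22 ± 0.14 (0.414) and for Acsl3 it was 0.29 ± 0.23 (0.521).

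Genes that feed, regulate or run beside the pathway were summarised from lists of known function. Peroxisomal oxidation, which shortens very long and branched acids, had 15 of 16 tested genes positive with dapagliflozin averaged over Akita mice, 10 at an unadjusted p under 0.05 (beside 80.8% positive and 16.8% at that p among all genes) and 2 called (beside 0.801% called upward). Abcd3, a peroxisomal acyl-CoA importer, rose by 0.70 ± 0.14 (log2, adjusted p = 0.016), and Phyh, which starts the breakdown of phytanic acid, rose by 0.60 ± 0.14 (0.0302). Abcd3 averaged 26.3 ± 4.65 TPM in Akita KO dapagliflozin and 18.5 ± 4.45 TPM in Akita KO vehicle libraries, and 30.6 ± 5.55 TPM with dapagliflozin and 16.4 ± 5.16 TPM with vehicle in Akita WT libraries. The list's median was 0.43, beside 0.17 for all genes. A further list joins omega-oxidation genes with PPAR-alpha targets, and 6 of its 7 tested genes were positive. Its omega-oxidation gene Cyp4a12a, a fatty acid omega-hydroxylase, rose by 1.03 ± 0.20 (0.016). Of 6 ketone body genes 5 were positive, and Acat1, the mitochondrial acetoacetyl-CoA thiolase, rose by 0.60 ± 0.15 (0.0346). None of these 4 calls held without the 4 libraries with the fewest genes, where the adjusted p was 0.354 for Abcd3, 0.701 for Phyh, 0.421 for Cyp4a12a and 0.717 for Acat1. Leaving out 1 library, Abcd3 and Cyp4a12a passed in 23 of 23 fits, Phyh in 12 and Acat1 in 10. Under median-of-ratios scaling Abcd3 (0.45, 0.0381) and Cyp4a12a (0.77, 0.0254) passed, and Phyh (0.34, 0.0566) and Acat1 (0.35, 0.0616) did not. Under rescaling to nuclear protein-coding TPM all of them passed, at smaller differences than as deposited. These were 0.42 (0.0395) for Abcd3, 0.32 (0.0403) for Phyh, 0.75 (0.0188) for Cyp4a12a and 0.33 (0.0448) for Acat1.

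The other lists held no called gene under dapagliflozin in Akita mice, where 0.816% of all genes were called and 80.8% were positive. Fatty acid uptake and binding had 8 of 9 positive, led by Cd36, the fatty acid translocase (0.71 ± 0.21, adjusted p = 0.0724), and the acyl-CoA synthetase Slc27a2 (0.46 ± 0.16, 0.144). Other thioesterases had 8 of 9 positive, led by Acot12 (0.70 ± 0.19, 0.056) and Acot3 (0.45 ± 0.16, 0.144), and propionyl-CoA and branched-chain breakdown had 13 of 13, led by Ivd (0.53 ± 0.18, 0.121) and Hibch (0.62 ± 0.23, 0.156). Lipid droplet genes had 7 of 10 positive, led by the lipolysis inhibitor G0s2 (0.66 ± 0.19, 0.0711) and Dgat2 (0.37 ± 0.18, 0.282), and malonyl-CoA and AMPK genes 6 of 8, led by Prkaa2 (0.54 ± 0.16, 0.0749) and Prkab1 (0.35 ± 0.19, 0.333). Transcriptional regulators had 11 of 11 positive at a median of 0.16, no higher than that of all genes, led by Ncor1 (0.48 ± 0.16, 0.121) and Ppara, which encodes PPAR-alpha (0.55 ± 0.22, 0.182).

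Between Akita and non-diabetic vehicle mice, averaged over genotypes, 3 genes of these lists fell: Cyp4a12a by 0.99 ± 0.21 (log2, adjusted p = 0.0188), Cd36 by 0.87 ± 0.21 (0.0422) and the cytosolic thioesterase Acot12 by 0.79 ± 0.19 (0.0422). Without the 4 libraries with the fewest genes none of them passed (adjusted p = 0.427 for Cyp4a12a, 0.735 for Cd36 and 0.755 for Acot12). Nor did any under median-of-ratios scaling (0.0676 for Cyp4a12a, 0.259 for Cd36 and 0.14 for Acot12). Under rescaling to nuclear protein-coding TPM Cyp4a12a passed (0.0431), and Cd36 (0.253) and Acot12 (0.115) did not. With capture number as a covariate Cyp4a12a (0.0636), Cd36 (0.0995) and Acot12 (0.136) all missed the threshold. Cyp4a12a passed in 20 of 22 fits that each left out 1 library, Cd36 in 9 and Acot12 in 8. Cd36 averaged 45.8 ± 11.6 TPM in Akita KO and 23.4 ± 10.9 TPM in Akita WT vehicle libraries, against 70.8 ± 29.6 TPM in non-diabetic KO and 50.7 ± 11.97 TPM in non-diabetic WT vehicle libraries. Ppara differed by −0.76 ± 0.22 (0.0773), at 8.18 ± 4.23 TPM in Akita KO and 6.64 ± 1.77 TPM in Akita WT, against 14.8 ± 1.55 TPM in non-diabetic KO and 10.9 ± 5.01 TPM in non-diabetic WT vehicle libraries. In the peroxisomal list 0 of 16 were positive (beside 15.6% of all genes), 7 had an unadjusted p under 0.05 (beside 18.1% downward among all genes) and 0 passed, and the 2 smallest p-values were those of Abcd3 (−0.46 ± 0.14, 0.0945) and Crot (−0.53 ± 0.16, 0.0945). Among transcriptional regulators 0 of 11 were positive and 5 had an unadjusted p under 0.05, beside the same shares of all genes. The drug and diabetes comparisons share the Akita vehicle libraries, so their opposite signs are not separate observations.

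The genes outside the list whose group means most resembled the pathway were found from the Pearson correlation across the 9 group means with the mean of the members, each on the log2(TPM + 1) scale less the group's mean over all tested genes. The 10 highest were Lamp2 (0.975), Slc4a4 (0.965), Esd (0.962), Kl (0.959), Vps35 (0.953), Sptbn1 (0.953), Hspa9 (0.951), Lamp1 (0.949), Ptprf (0.948) and Uqcc1 (0.945). Lamp1 and Lamp2 are lysosomal membrane proteins, Slc4a4 is the basolateral sodium bicarbonate cotransporter of the proximal tubule, Kl encodes Klotho, Hspa9 is a mitochondrial chaperone and Uqcc1 assembles respiratory complex III. The correlations rest on 9 group means that share libraries of unequal gene detection, and are given as a description without a test.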

How the data were processed

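RNA-seq libraries (SMARTer Stranded Total RNA-seq Pico kit, 0.5 ng RNA, per the labels' protocols) were made from laser-captured tubules. The authors' deposited table gives TPM per gene and sample, made with Salmon (version not given in the sources used here) and MultiQC 1.8 on GRCm38, per the submitters' processing notes. TPM keeps no depth, so counting error is unknown. Of 54 labelled samples, 48 have a column and 6 were not analysed here. The table's name mentions removed outliers, and how they were picked is not stated in the sources at hand. TPM of all genes in a library share a fixed sum, so a shift in ribosomal RNA moves every other gene.

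Group means of log2(TPM + 1) in 9 groups were fitted with limma 3.58.1 (R 4.3.3, trended and robust variance, 39 residual degrees of freedom) over 12742 of 55487 rows with TPM of at least 1 in at least 5 libraries. In each of 18 comparisons p-values were adjusted by Benjamini-Hochberg over all tested rows and called under 0.05. The script was tested on simulated data: with known changes in the comparison of diabetes in wild type over 12742 genes, it recovered 59% of log2 changes of 1 and 96% of log2 changes of 2. It made 8 false calls. Each gene was drawn independently there, without shifts shared by a whole library, and changes were planted only in the better-expressed genes. The recovery rates therefore do not describe the sensitivity for low members or in the real libraries. Gene identifiers and positions are those of GENCODE M21. Samples are not tied to animals in the labels, so p-values reflect variation among these libraries only, part of which could be technical.

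The members and the pathway and marker lists were chosen with earlier results of these data known. Values are given in full for members called in any comparison, the 2 members of smallest p in each comparison and the 5 highest and 5 lowest by mean TPM, and for called genes of the other lists or their 2 of smallest p, and the 10 other genes most like the member mean over the 9 group means are named. Alternatives were a pseudocount of 0.1, no filter, a filter of 5 TPM in 5 libraries, median-of-ratios scaling, rescaling to nuclear protein-coding TPM without Lars2, the number in the library's title as a covariate, leaving out the 4 libraries with the fewest genes, and leaving out each library in turn.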

Additional observations from a re-analysis of the deposited data

Results flagged for a closer look

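Some members had 1 library that stood apart from the rest of its group, its gap to the nearest other library being over the 95% critical value of Dixon's test as a share of the group's range. Of 189 sets of 1 gene in 1 group that were tested, 25 met this. Chance gives about 5% for independent sets of normally distributed values. Here raw TPM was used, sets share libraries and most flagged values were high ones, so the count does not show an excess. No library was left out for it, and why these values stand apart was not tested.

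Values of Etfdh bear on the gene called with dapagliflozin in Akita mice or on the diabetes comparison. Etfdh had 10.6 TPM in Akita KO vehicle replicate 1 (others 6.34 to 7.44 TPM) and 15.4 TPM in non-diabetic KO vehicle replicate 5 (others 8.41 to 10.2 TPM). Without the first, the averaged dapagliflozin difference of Etfdh still passed.

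Among dehydrogenases and flavoprotein genes, Acadsb had 13.9 TPM in Akita WT dapagliflozin replicate 6 (others 4.27 to 6.88 TPM) and, on the low side, 5.19 TPM in non-diabetic KO dapagliflozin replicate 1 (others 8.86 to 10.9 TPM). Acad10 had 12.2 TPM in Akita KO dapagliflozin replicate 5 (others 5.44 to 7.69 TPM), Acads had 43.4 TPM in Akita KO vehicle replicate 3 (others 14.1 to 23.6 TPM) and Etfa had 30.1 TPM in Akita WT dapagliflozin replicate 5 (others 21.8 to 23.7 TPM). The Acad10 library belongs to the treated side of the dapagliflozin comparison in Akita KO mice and the Acads library to its vehicle side.

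In the carnitine shuttle, Cpt1a had 39.1 TPM in non-diabetic WT dapagliflozin replicate 3 (others 17.96 to 21.4 TPM), Slc22a5 had 16.3 TPM in non-diabetic KO vehicle replicate 5 (others 11.01 to 11.9 TPM), and Cpt1b had 1.93 TPM in Akita KO vehicle replicate 1 (others 0.0444 to 0.324 TPM), 1.82 TPM in Akita WT dapagliflozin replicate 4 (others 0 to 0.328 TPM) and 1.65 TPM in non-diabetic KO vehicle replicate 3 (others 0.204 to 0.516 TPM). The synthetase Acsl5 had 7.82 TPM in Akita KO vehicle replicate 1 (others 0.885 to 3.203 TPM) and 6.08 TPM in Akita WT dapagliflozin replicate 6 (others 1.88 to 2.73 TPM), Acsl4 had 2.03 TPM in Akita WT dapagliflozin replicate 6 (others 1.17 to 1.396 TPM), and Acsl3 had 9.68 TPM in Akita KO dapagliflozin replicate 5 (others 1.87 to 3.296 TPM), 4.897 TPM in Akita KO vehicle replicate 1 (others 0.994 to 2.28 TPM) and 4.899 TPM in Akita WT vehicle replicate 2 (others 1.79 to 2.58 TPM).

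Of the later steps, Echdc3 had 5.43 TPM in Akita WT dapagliflozin replicate 2 (others 2.21 to 2.904 TPM), 3.96 TPM in non-diabetic KO dapagliflozin replicate 2 (others 1.88 to 2.22 TPM) and 4.44 TPM in non-diabetic WT vehicle replicate 4 (others 2.48 to 3.004 TPM). Eci1 had 11.1 TPM in non-diabetic WT vehicle replicate 4 (others 6.20 to 7.47 TPM) and Hadh had 47.3 TPM in non-diabetic KO vehicle replicate 5 (others 23.2 to 29.1 TPM). Acot2 had, on the low side, 1.82 TPM in Akita WT dapagliflozin replicate 2 (others 2.54 to 2.78 TPM) and, on the high side, 3.04 TPM in non-diabetic WT dapagliflozin replicate 3 (others 1.22 to 1.25 TPM).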

How the results depend on the processing

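With dapagliflozin averaged over Akita mice, 1 member passed as deposited, whereas 0 passed without a filter on low values, under median-of-ratios scaling, under rescaling to nuclear protein-coding TPM and without the 4 libraries with the fewest genes, and 3 (Decr1, Etfa and Etfdh) passed under the stricter filter. Without a filter more genes were tested. Without the 4 libraries there were fewer samples, and the differences were also smaller. The member median went from 0.35 to 0.14 and that of all genes from 0.17 to 0.02 (log2). What caused the loss of calls was not tested for any of these alternatives. When single libraries were left out, 0 to 5 members passed, with 5 (Cpt1a, Acadm, Decr1, Etfa and Etfdh) without Akita WT vehicle replicate 1 and also 5 without Akita KO vehicle replicate 3. For diabetes averaged over genotypes 0 to 1 passed, the 1 being Etfdh without Akita WT vehicle replicate 1. Over all genes, 104 passed with dapagliflozin averaged over Akita mice, against 6 without a filter, 233 under the stricter filter, 54 under median-of-ratios scaling, 0 without the 4 libraries and 9 to 378 leaving out 1 library. For diabetes averaged over genotypes 71 passed, against 18 without a filter, 128 under the stricter filter, 22 under median-of-ratios scaling, 30 under rescaling to nuclear protein-coding TPM, 17 with the title's number as a covariate, 4 without the 4 libraries and 11 to 313 leaving out 1 library. For diabetes in wild type 3 passed, against 0 without a filter, 6 under the stricter filter, 12 and 11 under the rescalings, 1 with the covariate, 1 without the 4 libraries and 0 to 6 leaving out 1 library. For dapagliflozin in Akita KO mice 0 passed as deposited, 3 under median-of-ratios scaling and 2 under rescaling to nuclear protein-coding TPM, none of them a member. In the other comparisons 0 to 5 genes passed over all these alternatives. No called value of a member changed sign under any alternative. No paired analysis was possible because the labels give no replicate numbers that could pair samples across groups. Depth is unknown from TPM, so low members such as Cpt1b and Acsl4 cannot be given a counting error, and groups of 4 to 6 libraries leave wide intervals.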
